A study of Mus musculus with 2 samples.

Results

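Angiopoietins are secreted ligands, and TEK (also called TIE2) and TIE1 are the receptor tyrosine kinases through which they act. The 4 genes Angpt1, Angpt2, Tek and Tie1 were taken by symbol from the 42462 genes of the deposited tables that matched the GENCODE M21 annotation, and all 4 were found. Their RNA was measured by total RNA sequencing of hematopoietic stem cells (HSC) of male C57BL/6J mice aged 5 to 6 weeks, with no treatment or genetic change given in the labels. There was 1 group of 2 biological replicates, both tied to the same donor entry, so the spread between them may hold technical as well as biological variation. The sources used here give neither the surface gate of the sort nor whether animals were pooled.

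Angiopoietin-1 activates TEK, and angiopoietin-2 is best known as a context-dependent antagonist that endothelial cells store and release. TIE1 binds angiopoietins poorly on its own and modulates TEK within a receptor complex. In bone marrow, TEK on stem cells and angiopoietin-1 have been linked to stem cell quiescence and attachment in the niche, and angiopoietin-1 RNA is known from hematopoietic, megakaryocytic and stromal cells.

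Replicate 1 held 27901074 counts and replicate 2 held 48490188, and 3 counts, the most that a count of 0 allows, correspond to 0.108 and 0.0619 CPM (counts scaled to a fixed library total). Intervals and floors cover counting and assignment error only. Levels are given in TPM, that is, per length and scaled to the same sum in each library, and a gene was called detected from 1 TPM upward in each library. By this rule 12 of 14 HSC markers (85.7%) were detected, beside 44.0% of protein-coding genes. Cd34, Ptprc and Meis1 stood highest, and Slamf1 (0.42 and 0.43 TPM) and Hoxb5 (0.04 and 0.26) were the markers below 1 TPM. Fgd5 (1.18 and 1.15 TPM) was the detected marker nearest to that mark. The name HSC is that of the labels, and the part of other progenitors in the levels given here was not tested. No test of a ratio was made, since over 2 libraries the exact permutation of signs cannot give a p below 0.5. Instead, a pair of genes was called ordered where one exceeded the other in each library and their deposited intervals, which carry counting and assignment error, stayed apart in each.

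The 4 genes spanned the range from one of the most abundant messages of the cells to none detected. Angpt1 led at 100.2 ± 19.4 TPM (SD, n = 2), Tie1 followed at 4.36 ± 0.573 and Tek at 1.94 ± 0.926, and Angpt2 was listed at 0 in both libraries. Detected were thus 3 of the 4 genes, beside 44.0% of 21474 protein-coding genes. All 6 pairs among them were ordered, so no neighbours in this order overlapped within a library. Since these are bulk libraries, few cells with much RNA of a gene and many cells with little cannot be told apart.

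**Figure D1:**
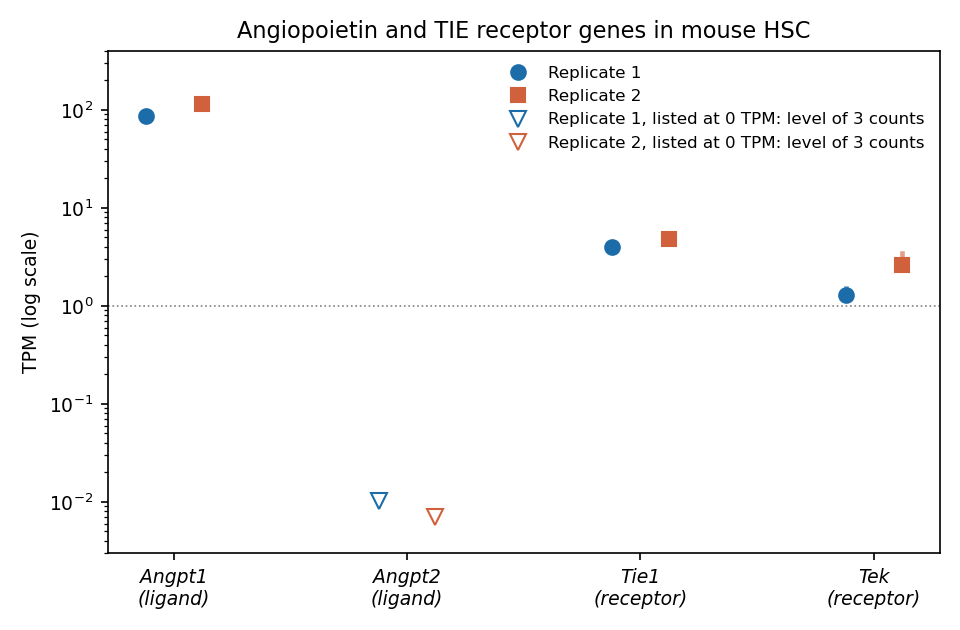
Level of each gene in TPM (vertical axis, log scale) in replicate 1 (circles) and replicate 2 (squares), with the deposited interval as a bar where it is longer than the symbol; open triangles show the level of 3 counts for Angpt2, which was listed at 0 TPM, and the dotted line marks 1 TPM. Angpt1 lay at 86.5 and 114 TPM, above both receptors, and Tie1 lay above Tek in both libraries.

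Among the ligands, Angpt1 (ENSMUSG00000022309; chromosome 15, 42424723 to 42676977, minus strand, GRCm38) stood at 86.5 TPM in replicate 1 and 114 TPM in replicate 2. It drew 30343 and 59286 counts. That was 0.109% of all counts in replicate 1 (95% Wilson interval 0.108 to 0.110) and 0.122% in replicate 2 (0.121 to 0.123). By mean TPM it ranked 234 among the 21474 protein-coding genes, with 98.9% of them below it. The deposited intervals, 83.9 to 85.9 and 112 to 114 TPM, are centred on the posterior mean of 84.9 and 113 TPM, so the TPM itself can lie just outside. Angpt1 has 1 transcript in the deposited tables, Angpt1-201 with 498 codons, and its isoform percent was 100 in both libraries. The noncoding antisense gene Gm17473 overlaps its 5′ end over 737 bases on the opposite strand. Gm17473 had 30 and 7 counts, few beside those of Angpt1 whichever strand was counted.

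Angpt2 (ENSMUSG00000031465; chromosome 8, 18690263 to 18741562, minus strand) had 0 counts in replicate 1 and 2 counts in replicate 2. Its full length of 51300 bases lies inside Mcph1, a gene of DNA damage response and chromosome condensation on the opposite strand, which stood at 5.52 and 5.34 TPM from 1293 and 2719 counts. The sources used here do not say whether counting used strand, but the Angpt2 count was near 0 all the same. The deposited intervals of Angpt2 reached up to 0.0772 TPM in replicate 1 and 0.0637 TPM in replicate 2. Against these upper limits, which hold assignment error and the short noncoding transcript Angpt2-202, Angpt1 was 1120-fold higher in replicate 1 and 1787-fold in replicate 2. Tie1 was 51.2-fold and 74.7-fold higher, and Tek 16.6-fold and 40.6-fold. If all counts are given to the longer coding transcript, the ratios are larger but cover counting error only. With Angpt2 at 3 such counts, Angpt1 was 8382-fold higher in replicate 1, which is a 1-sided limit. The 2-sided upper limit for 0 counts is 3.69 counts and would give a smaller ratio. In replicate 2 the ratio of Angpt1 was 24501, with a 2-sided counting interval of 6782 to 202309. These HSC thus carried the agonist message and next to none of the antagonist message.

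Of the receptors, Tie1 (ENSMUSG00000033191; chromosome 4, 118471191 to 118490061, minus strand) was the higher one. It stood at 3.95 TPM in replicate 1 (interval 3.67 to 4.13) from 1276 counts and at 4.76 TPM in replicate 2 (4.54 to 4.92) from 2343 counts. Tek (ENSMUSG00000006386; chromosome 4, 94739289 to 94874976, plus strand) stood at 1.28 TPM in replicate 1 (1.18 to 1.52) from 480 counts and at 2.59 TPM in replicate 2 (2.40 to 3.48) from 1403 counts. Tie1 therefore exceeded Tek 3.09-fold in replicate 1 and 1.84-fold in replicate 2, a log2 ratio of 1.20 ± 0.49 (SD, n = 2, log2 of TPM + 0.1). No other annotated gene overlaps either receptor gene. By mean TPM, Tie1 ranked 6141 and Tek 8577 among protein-coding genes.

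The ligand message exceeded both receptor messages by a wide margin. Angpt1 stood 21.9-fold above Tie1 in replicate 1 and 23.9-fold in replicate 2, a log2 ratio of 4.48 ± 0.09. Over Tek the excess was 67.5-fold in replicate 1 and 44.0-fold in replicate 2, a log2 ratio of 5.69 ± 0.40. The ratio over Tie1 was therefore the steadier one between the libraries.

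Tek and Tie1 are also expressed in endothelium, so the other endothelial markers were set beside them. Of 17 such markers (Tek and Tie1 not counted), 7 (41.2%) were detected, a share near the 44.0% of protein-coding genes, and the summed level of all 17 was 50.8 TPM in replicate 1 and 56.7 in replicate 2. Egfl7 (29.1 and 29.8 TPM), Pecam1 (8.13 and 9.46) and Emcn (4.46 and 4.71) made up most of that sum. Eng (3.39 and 4.84), Esam (1.99 and 3.22), Ecscr (1.49 and 1.88) and Robo4 (1.97 and 1.28) were the other detected markers, and Stab2 stood at 0.01 and 1.29 TPM. The junction gene Cdh5 and the genes Mmrn2 and Sox17 had 0 counts in both libraries, and the VEGF receptor gene Kdr had 0.05 and 0.2 TPM. The list was thus mixed, with some markers above or near the level of Tie1 and others without a count. The part of other cells in the receptor levels was not tested. Tie1 and Kdr were ordered, with Tie1 higher by 4.39 ± 0.52 on the log2 scale.

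Megakaryocytes and stromal cells, other known sources of angiopoietin-1, were checked in the same way. Of 12 megakaryocyte and platelet markers 3 (25%) were detected (Itga2b, Pf4 and Vwf), beside 44.0% of protein-coding genes. Gp6 had 0 counts, and all 12 summed to 15.4 TPM in replicate 1 and 21.9 in replicate 2. Of 12 stromal and mesenchymal markers 1 (8.33%) was detected, Pdgfrb, beside the same 44.0%, and the list summed to 3.58 and 3.49 TPM. After Pdgfrb came Cxcl12 (0.36 and 0.28 TPM) and Lepr (0.19 and 0), and Dcn, Col3a1, Lum and Bglap had 0 counts in both libraries. The part of megakaryocytes and stromal cells in the Angpt1 level was not tested.

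The Tie1 transcripts differed in their shares between the libraries. Tie1-201, the transcript with the full reading frame of 1134 codons, held 57.2% of the gene's TPM in replicate 1 and 86.9% in replicate 2. Its level was 2.26 TPM in replicate 1 (1.91 to 2.51) and 4.14 TPM in replicate 2 (3.86 to 4.30), and these intervals did not overlap. Tie1-203 held 26.7% and 7.76%, at 1.06 TPM (0.792 to 1.30) and 0.37 TPM (0.258 to 0.525), also without overlap. Tie1-202, which has no annotated reading frame, held 16.1% and 5.37%. Replicate 2 was thus higher in the full-length transcript and lower in the other transcripts, while the gene total differed 1.21-fold.

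The 2 annotated forms that encode protein part at an intron, and they also start at different positions (118490061 for Tie1-201 and 118489755 for Tie1-203). Tie1-203 keeps the 460-base intron between exons 12 and 13 of Tie1-201 (chromosome 4, 118479153 to 118479612), and its reading frame ends in that intron after 647 codons. The exons that encode the transmembrane segment and the kinase domain lie beyond that stop. The sequences around that point are shown because they separate a receptor-coding from a truncated message. In the first, lower case gives the last 30 bases of exon 12 and capitals the first 30 of exon 13 as joined in Tie1-201. In the second, the same 30 bases run on through 26 bases of the kept intron to the stop codon in capitals (chr4:118479584-118479642, minus strand, GRCm38, 5′ to 3′, from the GENCODE M21 transcripts).
Tie1-201 junction: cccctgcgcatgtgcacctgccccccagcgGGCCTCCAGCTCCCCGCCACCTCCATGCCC
Tie1-203 intron: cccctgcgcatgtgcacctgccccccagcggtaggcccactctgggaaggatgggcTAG

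A change of this size in isoform share was common. Of 7414 protein-coding genes with 2 or more transcripts and a mean of at least 1 TPM, 30.8% had a leading transcript whose share differed by over 20 percentage points between the libraries, and in 17.5% it was higher in replicate 2. Of the receptor genes, Tie1 (29.7 points) passed this mark and Tek (-2.74 points for its leading transcript) did not. Over 4306 genes with a transcript annotated as retaining an intron, the median share of such transcripts was 12.6% in replicate 1 and 8.58% in replicate 2. Taken gene by gene the median change was -1.44 percentage points, and of their summed TPM such transcripts held 16.1% in replicate 1 and 14.3% in replicate 2. The Tie1 transcripts are annotated as protein-coding or as processed transcripts, so Tie1 itself is not among these genes. Effective lengths correspond to fragments of 193 bases on average in replicate 1 and 245 in replicate 2. The part of fragment length and of unspliced RNA in the Tie1 shares was not tested.

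**Figure D2:**
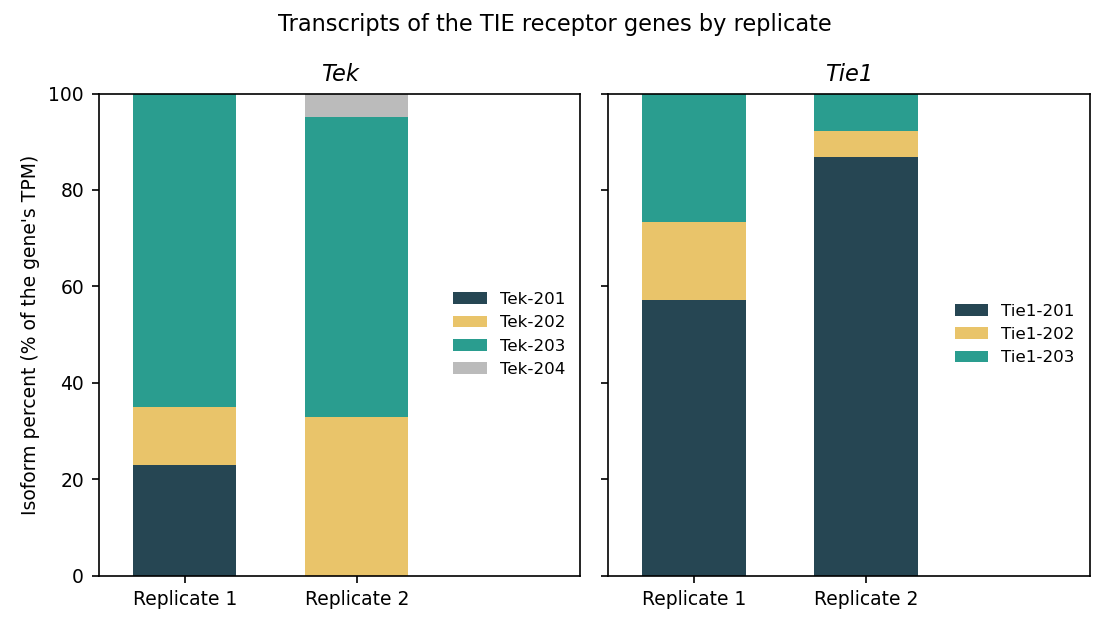
Share of each annotated transcript in the TPM of Tek (left) and Tie1 (right), in percent, for replicate 1 and replicate 2. Tie1-201 held 57.2% and 86.9%, while Tek-203 held 65.1% and 62.4%.

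Tek was carried mainly by Tek-203, the transcript with the longest reading frame of 1123 codons. Tek-203 held 65.1% of the gene's TPM in replicate 1 and 62.4% in replicate 2, at 0.83 TPM (0.451 to 1.06) and 1.62 TPM (1.14 to 2.23). Its share was near the same in both libraries while its level differed without overlap. Tek-202, with 1072 codons, held 11.9% and 32.8%, and Tek-201, with 1122 codons, held 23.0% and 0%. The counts given to these transcripts were loose. Tek-201 had 101.5 counts with a posterior SD of 41.0 in replicate 1, Tek-202 had 475 with a posterior SD of 153 in replicate 2, and the intervals of either transcript overlapped between the libraries. The short noncoding Tek-204 held 0% and 4.84%.

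What sets the coding sequence of Tek-202 apart is exon 4 of Tek-203 (chromosome 4, 94799127 to 94799279), which Tek-202 skips. The exon has 153 bases, the length of 51 codons, so skipping it keeps the frame of the receptor, and it lies in the part that encodes the extracellular region. Transcripts with exon 4 held 88.1% of Tek TPM in replicate 1 and 62.4% in replicate 2. Tek-201 differs from Tek-203 in coding sequence by 3 bases at the end of exon 14. The transcripts also differ in where they start and end, with lengths of 4176 bases (Tek-201), 4549 (Tek-202) and 4654 (Tek-203). Both stretches are printed because the coding sequences of these transcripts differ there. Exon 4 is given whole (chr4:94799127-94799279, plus strand). Then come the last 30 bases of exon 14 in Tek-203 (chr4:94851848-94851877, plus strand), with the 3 bases absent from Tek-201 in capitals.
Tek exon 4: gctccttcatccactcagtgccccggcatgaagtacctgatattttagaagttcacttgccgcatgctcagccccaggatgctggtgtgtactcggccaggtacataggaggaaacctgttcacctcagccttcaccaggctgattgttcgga
Tek exon 14 end: aggagaatggctcaggcattccagaacGTG

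Between the replicates, Tek differed most among the 3 detected genes. Its TPM was 2.02-fold higher in replicate 2, a log2 difference of 0.96 with the pseudocount of 0.1 TPM and 1.02 without it, so it lay at the 2-fold mark used for calling replicates apart and was not called. Angpt1 differed by 0.40 and Tie1 by 0.26 on the log2 scale. All protein-coding genes of mean at least 1 TPM had a median difference of 0.29, since protein-coding genes took 16.3% of TPM in replicate 1 and 20.3% in replicate 2. Relative to that shift, Tek differed by 0.67, Angpt1 by 0.11 and Tie1 by -0.03. None of the 3 detected genes was called apart, beside 8.61% of 9900 protein-coding genes. Those called apart and higher in replicate 2 made 6.54% of the 9900. Angpt2, below a mean of 1 TPM, could not be called, and 3 genes are too few to set against such a share. In CPM, without division by length, Tek stood at 17.2 in replicate 1 and 28.9 in replicate 2, and Tie1 at 45.7 and 48.3.

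**Figure D3:**
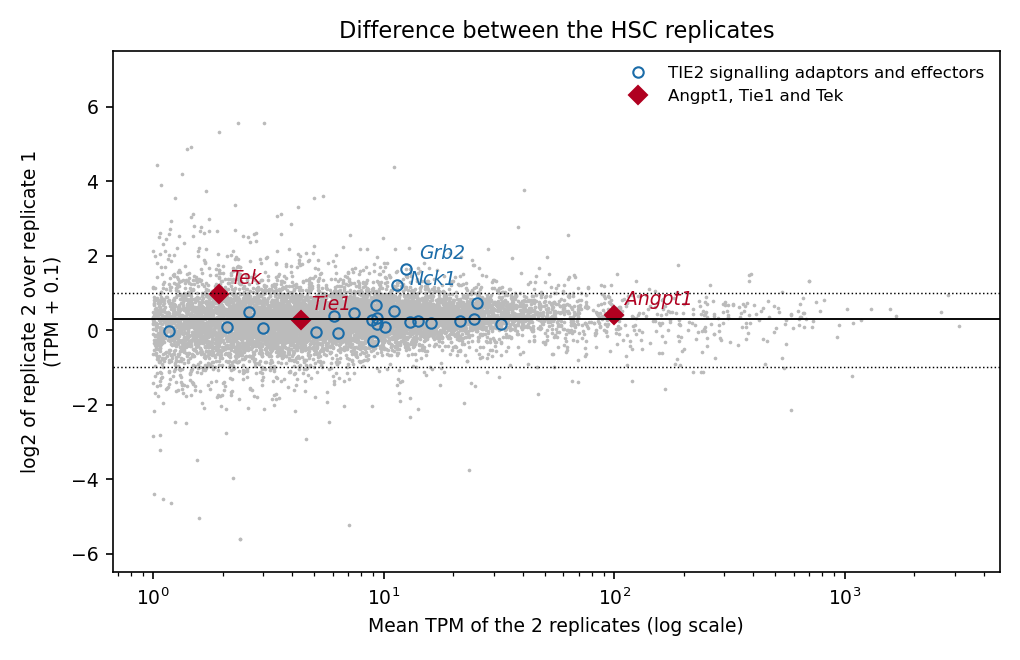
Difference between the replicates (vertical axis, log2 of replicate 2 over replicate 1 on TPM + 0.1) against mean TPM (horizontal axis, log scale) for 9900 protein-coding genes (grey), the TIE2 signalling genes (open circles) and the 3 detected genes (diamonds); the solid line is the median of 0.29 and dotted lines mark 2-fold. Angpt1 and Tie1 lay near the median and Tek near the upper 2-fold line.

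Among ligands of receptor tyrosine kinases, Angpt1 had the highest level. Of the 50 listed genes 49 were matched, and 7 of these (14.3%) were detected, beside 44.0% of protein-coding genes. Vegfa, the gene of the angiogenic factor VEGF-A, came next at 5.12 and 12.8 TPM and was ordered below Angpt1, by 16.9-fold in replicate 1 and 8.92-fold in replicate 2. It was followed by Hgf (4.11 and 5.69 TPM), the gene of the MET ligand, Gas6 (2.76 and 2.84), the gene of the AXL, TYRO3 and MERTK ligand, and Vegfb (1.05 and 1.88). Angpt4, the remaining angiopoietin gene, had 0 counts in both libraries. Angpt1 was thus the one angiopoietin gene above 3 counts in these libraries.

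Of 58 receptor tyrosine kinase genes 13 (22.4%) were detected, beside 44.0% of protein-coding genes. Among the 58, Tie1 ranked 4 and Tek ranked 12 by mean TPM. Tie1 was ordered below Igf1r (6.06 and 5.43 TPM), the receptor gene for insulin-like growth factor, and above Pdgfrb (2.90 and 3.13). Flt3 and Kit, the cytokine receptor genes that led the list, exceeded Tie1 12.5-fold and 9.16-fold in the mean of log2 ratios. They exceeded Tek 28.9-fold and 21.1-fold. Tek and its upper neighbour Ptk7 (2.46 and 1.42 TPM) changed places between the libraries, and the intervals of Tek and its lower neighbour Ryk (1.22 and 1.49 TPM) overlapped in replicate 1. The place of Tek among these neighbours was therefore not settled by 2 libraries, whereas that of Tie1 was the same in both.

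**Figure D4:**
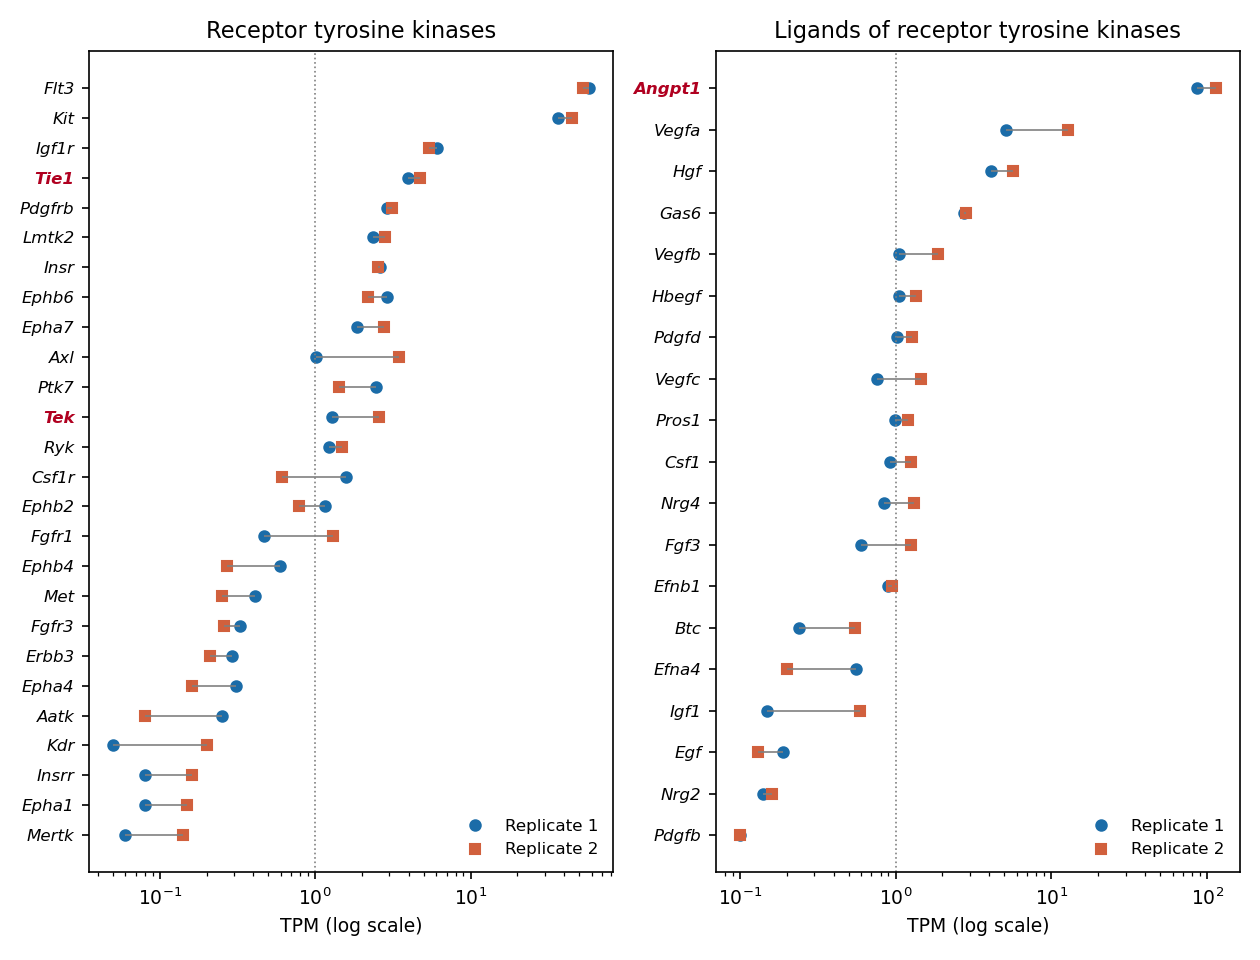
Levels in TPM (horizontal axis, log scale) of receptor tyrosine kinase genes (left) and of genes of their ligands (right) with a mean of at least 0.1 TPM and a value above 0 in both libraries, ordered by mean; circles are replicate 1, squares replicate 2, the dotted line marks 1 TPM and the angiopoietin and TIE genes are in red. Angpt1 stood above Vegfa by 16.9-fold and 8.92-fold, and Tie1 ranked 4 among the receptors.

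The angiopoietin-like genes, whose products share the fold of angiopoietins but do not bind TEK, were low. None of the 8 other family genes was detected, beside 44.0% of protein-coding genes. Angptl4, the gene of a lipoprotein lipase inhibitor, stood at 0.90 and 1.24 TPM and Angptl2 at 0.31 and 0.52. Angptl6 (0.14 and 0.16 TPM) lay below these, and Angptl1, Angptl7 and Angptl8 had 0 counts like Angpt4. The list median was 0.075 TPM, beside 0.545 over all protein-coding genes.

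Of 7 partners and modulators of the TIE receptors, 4 (57.1%) were detected, all of them integrin genes, beside 44.0% of protein-coding genes. Itgb1, the common beta subunit, stood at 31.0 and 38.7 TPM and Itgav at 4.68 and 4.26. Itgb3 (1.06 and 1.96 TPM) and Itga5 (1.26 and 1.18), the partner of Itgb1 in the fibronectin receptor that associates with TEK, were nearer to the level of Tek itself. Ptprb, the gene of the endothelial phosphatase VE-PTP that removes phosphate from TEK, had 13 counts in replicate 1 and 0 in replicate 2. Svep1, the gene of a TIE1 ligand, stood at 0.03 and 0.02 TPM, and Lect2 had 0 counts.

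Genes that act below TEK were mostly expressed. Of 29 adaptors and effectors 24 (82.8%) were detected, beside 44.0% of protein-coding genes, and the median of the list was 9.02 TPM, beside 0.545. Pik3r1, the regulatory subunit of PI3-kinase that binds activated TEK, stood at 30.3 and 34.1 TPM, and Rasa1, the gene of a RAS GTPase-activating protein, at 22.3 and 27.3. Grb7, Grb14 and the endothelial nitric oxide synthase gene Nos3 had 0 counts in both libraries. Dok2, the gene of an adaptor that binds TEK, stood at 5.16 and 4.98 TPM. Foxo1, the gene of a factor that AKT inhibits below TEK and that induces Angpt2 in endothelium, stood at 0.29 and 0.46 TPM, while its paralog Foxo3 stood at 12.03 and 13.97. The adaptor genes Grb2 (6.05 and 19.0 TPM) and Nck1 (6.82 and 16.0) were called apart between the replicates, 2 of the 24 genes of mean at least 1 TPM, beside 8.61% of protein-coding genes.

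Likeness of level was measured as the distance in log2 of TPM + 0.1 over the 2 libraries, which only says that a gene had the same levels. Nearest to Angpt1 were Caprin1 (87.9 and 112 TPM), Ivns1abp (90.1 and 114) and Hist1h2ag (85.0 and 110), a histone gene of a multigene family whose counts are uncertain. Nearest to Tie1 were Ppm1h, Sp4 and Polr3c, and nearest to Tek were Taf1c, Cdkl3 and 2700081O15Rik, at distances of 0.015 to 0.039. Angpt2 shared its listing at 0 in both libraries with 7661 other protein-coding genes.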

How the data were processed

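Total RNA of 2 HSC replicates was depleted of ribosomal RNA and sequenced, per the labels. The sample text files name mm10 and GENCODE M4. The sources used here do not name the aligner, the counter or its strand setting. Per the file headers, the authors deposited expected counts, TPM, FPKM, and isoform percent, with interval bounds, posterior SDs and lengths, each treated as a score. The headers do not state the level of the intervals, which was taken as 95%. FPKM was not used. Names, exons and positions came from GENCODE M21 on GRCm38, matched by identifier without version. Transcript lengths were the same in the tables and in M21 except for Angpt1-201 (4256 and 4260 bases).

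Gene ratios were log2 of TPM + 0.1, per library. Replicates of a gene were called apart where its mean reached 1 TPM, they differed over 2-fold on that scale and their intervals stayed apart. Angpt2 was set to 3 counts only for the limit of the ratios over it in replicate 1 and for the triangles in the figure. Log2 ratios and differences kept its 0 and added a pseudocount, which was 0.1 on CPM as well. Members and lists were chosen with earlier results of these data known; the share of 20 percentage points was set after seeing the data. Named genes were the 4 genes, their overlapping genes, the related ligands and partners, list leaders, list members without counts, neighbours in order and the 3 nearest genes in level; Slamf1, Hoxb5, Dok2, Foxo3, Foxo1, Kdr, Eng, Esam, Ecscr, Robo4, Stab2 and the genes called apart lie outside this rule or were picked after their values were seen. Neighbours of Angpt2 among genes tied at 0 were not named, and some genes that the rule takes are not reported here. Scaling alternatives used TMM of edgeR 4.0.16 on counts rounded to whole numbers. Steps ran in Python 3.11.15 and were tested on simulated data.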

Additional observations from a re-analysis of the deposited data

How the results depend on the processing

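No ratio among the 4 genes changed direction under the alternatives run, nor with either library alone. For Angpt2, 3 counts on its coding transcript correspond to 0.0103 TPM in replicate 1 and 0.00697 in replicate 2, below the deposited upper limits of 0.0772 and 0.0637 TPM. Ratios over Angpt2 depended on the pseudocount, as a gene near 0 must. The log2 ratio of Angpt1 over Angpt2, 9.96, was 6.65 with a pseudocount of 1 TPM, 13.3 with 0.01 TPM, 9.56 on posterior mean TPM and 13.2 on CPM. That of Tek over Angpt2, 4.27, was 1.52, 7.52 and 7.56 with 1 TPM, 0.01 TPM and CPM. That of Tie1 over Angpt2, 5.47, was 2.42, 8.76, 5.08 and 8.63 with 1 TPM, 0.01 TPM, posterior means and CPM.

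Over Tek, the log2 ratio of Angpt1 was 5.13 with 1 TPM. Over Tie1 it was 4.23 with 1 TPM, 4.61 on CPM and 4.64 on coding transcripts only. With each library alone the ratios ran from 9.76 to 10.2 (Angpt1 over Angpt2), 5.41 to 5.97 (Angpt1 over Tek), 4.42 to 4.55 (Angpt1 over Tie1), -1.55 to -0.85 (Tek over Tie1), 3.79 to 4.75 (Tek over Angpt2) and 5.34 to 5.60 (Tie1 over Angpt2).

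The difference between replicates was 0.081 for Angpt1 and -0.047 for Tie1 on TPM over protein-coding genes, and 0.076 for Tie1 after TMM. For Angpt2, listed at 0 TPM, its 2 counts gave 0.50 on CPM, after TMM and with median-of-ratios size factors. That value is set by the pseudocount of 0.1, since replicate 1 had 0 counts, and says nothing of a difference in Angpt2. The share of Tek-203, 63.7% in the mean, was 56.7% on posterior means and 62.4% to 65.1% by library, and that of Tie1-201 was 57.2% to 86.9%. Among coding transcripts only, a choice made after seeing the data like that of no pseudocount, Tie1-201 held 68.1% and 91.8%, and Tek-203 64.8% and 65.6%. The share of Angpt2 transcripts could not be given, with 0 counts in replicate 1.

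Counts of genes at 1 TPM moved with the minimum. The share of all protein-coding genes, 44.0%, is given only for 1 TPM in both libraries. The counts below therefore cannot be read as high or low against a share. Among the other angiopoietin family genes 0 became 1 at 0.5 TPM, 3 on TPM over protein-coding genes, 4 at 10 counts, and 0 with replicate 1 and 1 with replicate 2 alone. TIE partners numbered 2 at 2 TPM. Receptor kinases numbered 8 at 2 TPM, 20 on protein-coding TPM and 29 at 10 counts, and ligands 13 at 0.5 TPM, 4 at 2 TPM, 14 on protein-coding TPM, 20 at 10 counts, 7 with replicate 1 and 12 with replicate 2 alone. Endothelial markers numbered 4 at 2 TPM. Megakaryocyte markers numbered 5 at 0.5 TPM, 7 on protein-coding TPM, 8 at 10 counts, 3 with replicate 1 and 6 with replicate 2 alone, and stromal markers 2 on protein-coding TPM and 3 at 10 counts. No paired analysis was possible because there is 1 group.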
